A study of Homo sapiens with 4 samples.

Results

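The ligands and receptors of the tumor necrosis factor (TNF) superfamily were examined in MDA-MB-231 cells with and without knockdown of the receptor tyrosine kinase AXL. The members were the protein-coding genes whose symbol begins with TNFSF or TNFRSF and a digit, together with TNF, LTA, LTB, LTBR, CD40, CD40LG, CD70, CD27, NGFR, EDAR and FASLG. This gave 44 genes, 18 ligands and 26 receptors, of 63677 genes in the table (22810 protein-coding). Of 64 rows that matched, 20 were repeated entries of TNF, LTA or LTB and were dropped, since each of these symbols had reads in 1 row only.

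The MDA-MB-231 line, established from a triple-negative human breast cancer and high in AXL, was grown in medium with serum. All 4 libraries came from this line: 2 from cells given a control siRNA (siCt 1 and siCt 2) and 2 from cells given pooled siRNAs to AXL (siAxl 1 and siAxl 2), each by lipid transfection. The study used the comparison to define the genes that respond to loss of AXL. The labels do not say whether the 2 libraries of a group came from separate cultures, so the p-values measure the spread between these libraries, which may be technical.

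Libraries held 39574387 to 44585773 reads on genes. AXL was at 29189 and 30617 normalized counts in the siCt libraries and at 8658 and 7141 in the siAxl libraries (log2 fold change -1.93, standard error 0.09, adjusted p = 0.000585), as the labels state. Normalized counts are reads divided by the size factor of the library, and adjusted p-values are from limma with Benjamini-Hochberg adjustment over 16064 genes. VIM, CD44, EGFR and FN1, which mark this line, were present in every library, and ESR1 and PGR stayed at or below 3.25 normalized counts, but ERBB2 was measured at 2949 to 3680. EGFR (log2 fold change 0.94, adjusted p = 0.00166) and ERBB2 (0.26, 0.0258) were called higher in siAxl, while VIM, CD44 and FN1 were not called. Of 11 markers of blood cells, MS4A1 and NKG7 had 0 reads in every library and PTPRC stayed between 7.77 and 16.7 normalized counts. None of the 5 that could be tested was called by limma. The summed level of the 11 markers was 187 and 225 in siCt and 225 and 254 in siAxl. CD14 was nearest to a call (log2 fold change 0.57, adjusted p = 0.0509) and was called higher by edgeR (0.0480). LYZ alone among the 5 had a negative log2 fold change (-0.86, adjusted p = 0.103), and CD8A lay at 0.0020. The part of such cells in the results below was not tested. Of 4 markers of endothelial cells, PECAM1 had 0 reads and the only one tested was not called, with a summed level of 144 and 163 in siCt and 186 and 159 in siAxl. Since these are bulk samples, fewer cells that express a gene and less of its RNA per cell cannot be told apart.

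The TNF superfamily is a set of trimeric ligands, most of them made as membrane proteins that proteases can shed, and of receptors with cysteine-rich outer domains. Several receptors with an intracellular death domain bind TRADD or FADD and can start caspase activation. Receptors without one bind TRAF proteins and lead mainly to NF-kB and MAP kinase signaling. Decoy receptors bind a ligand without passing on a full signal. Most ligands are best known from immune cells, but epithelial and tumor cells carry many of the receptors and are killed, or kept alive, by TNF and by TNFSF10, better known as TRAIL.

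The 250 bases before the start of 3 members are shown because these members carry the results below, namely the ligand with the largest difference (TNFSF15), a receptor that fell (TNFRSF1B) and the most abundant member per length (TNFRSF21). The sequences are from RefSeq on build GRCh38.p14, whose table of 35116 promoters held 27 of the 44 members, and are written from 5′ to 3′ on the strand of the gene. They lie at chr9:114792531-114792780 (minus strand), chr1:12166741-12166990 (plus strand) and chr6:47309906-47310155 (minus strand). Capitals mark matches to the motifs that were searched on both strands.
TNFSF15: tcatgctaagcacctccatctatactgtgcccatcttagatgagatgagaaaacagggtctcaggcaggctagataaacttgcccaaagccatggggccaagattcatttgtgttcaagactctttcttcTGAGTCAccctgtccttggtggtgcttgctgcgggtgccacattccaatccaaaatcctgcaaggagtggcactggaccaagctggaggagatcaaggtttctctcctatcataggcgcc
TNFRSF1B: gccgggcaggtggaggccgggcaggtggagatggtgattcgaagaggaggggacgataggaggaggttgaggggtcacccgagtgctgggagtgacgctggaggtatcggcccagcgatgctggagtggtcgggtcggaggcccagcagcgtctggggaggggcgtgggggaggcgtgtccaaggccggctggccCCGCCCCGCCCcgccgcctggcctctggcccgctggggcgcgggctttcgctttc
TNFRSF21: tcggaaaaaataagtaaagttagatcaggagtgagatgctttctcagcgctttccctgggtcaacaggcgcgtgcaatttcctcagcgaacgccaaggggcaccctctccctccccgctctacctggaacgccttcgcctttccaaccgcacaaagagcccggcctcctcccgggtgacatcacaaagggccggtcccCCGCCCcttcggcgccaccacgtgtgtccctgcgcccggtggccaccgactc

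The stretch before TNFSF15 held 1 match to the AP-1 motif TGANTCA, which began 120 bases before the start, 2 CpG dinucleotides and 50% G and C. The stretch before TNFRSF1B held 2 matches to the GC box GGGCGG that overlap each other, beginning 55 and 50 bases before the start, with 22 CpG dinucleotides and 72.4% G and C. The stretch before TNFRSF21 held 1 GC box match, 52 bases before the start, with 20 CpG dinucleotides and 62% G and C. None of the 3 held a match to TATAAA or to the NF-kB consensus. Over all promoters of this length, 42.6% held a GC box, 6.57% an AP-1 match, 10.7% TATAAA and 5.21% the NF-kB consensus. Of the 27 members the same motifs were found before 17, 4, 6 and 6. A member was counted if any of its promoters held the motif, so these counts are not comparable with the percentages, which are per promoter. A match describes the letters and was not tested as a binding site.

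The 3 most abundant members in these cells were receptors, followed by the ligand TNFSF10 and then the receptor TNFRSF1A. To compare genes, levels are given in RPKM, the reads of a gene scaled to its exon length and to the depth of the library. The highest receptor, TNFRSF21 (death receptor 6, a death domain receptor studied mainly in neurons and lymphocytes), was at 148 ± 0.796 RPKM in siCt and 143 ± 2.77 in siAxl (SD, n = 2), above 99.2% of protein-coding genes. TNFRSF12A, the receptor of TNFSF12, followed with 83.7 ± 1.15 and 65.8 ± 1.09 RPKM. TNFRSF10B, a death receptor for TRAIL, was the third with 65.9 ± 0.552 and 55.8 ± 1.11. TNFRSF1A, the main TNF receptor of most tissues, was the fourth receptor with 28.6 ± 0.467 and 33.1 ± 0.790. These 4 receptors kept this order in every library, and within each group their values did not overlap. The next 3 in siCt, LTBR, TNFRSF10D and TNFRSF10A, lay close together, and TNFRSF10D (15.9 and 17.6 RPKM) could not be separated from TNFRSF10A (16.3 and 16.8).

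Among the ligands, TNFSF10 (TRAIL), which triggers apoptosis through its death receptors, was the highest in both groups, with 42.8 ± 1.62 RPKM in siCt and 44.4 ± 3.14 in siAxl. The others were at least several times lower in siCt: TNFSF12 at 6.77 ± 0.270, TNFSF15 at 5.44 ± 0.475, TNFSF9 at 4.34 ± 0.304 and TNFSF13 at 2.24 ± 0.230 RPKM. In siAxl, TNFSF15 was at 26.3 and 22.5 RPKM and had passed TNFSF12 to become the second ligand by level. All remaining ligands stayed below 1 RPKM in every library.

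**Figure D1:**
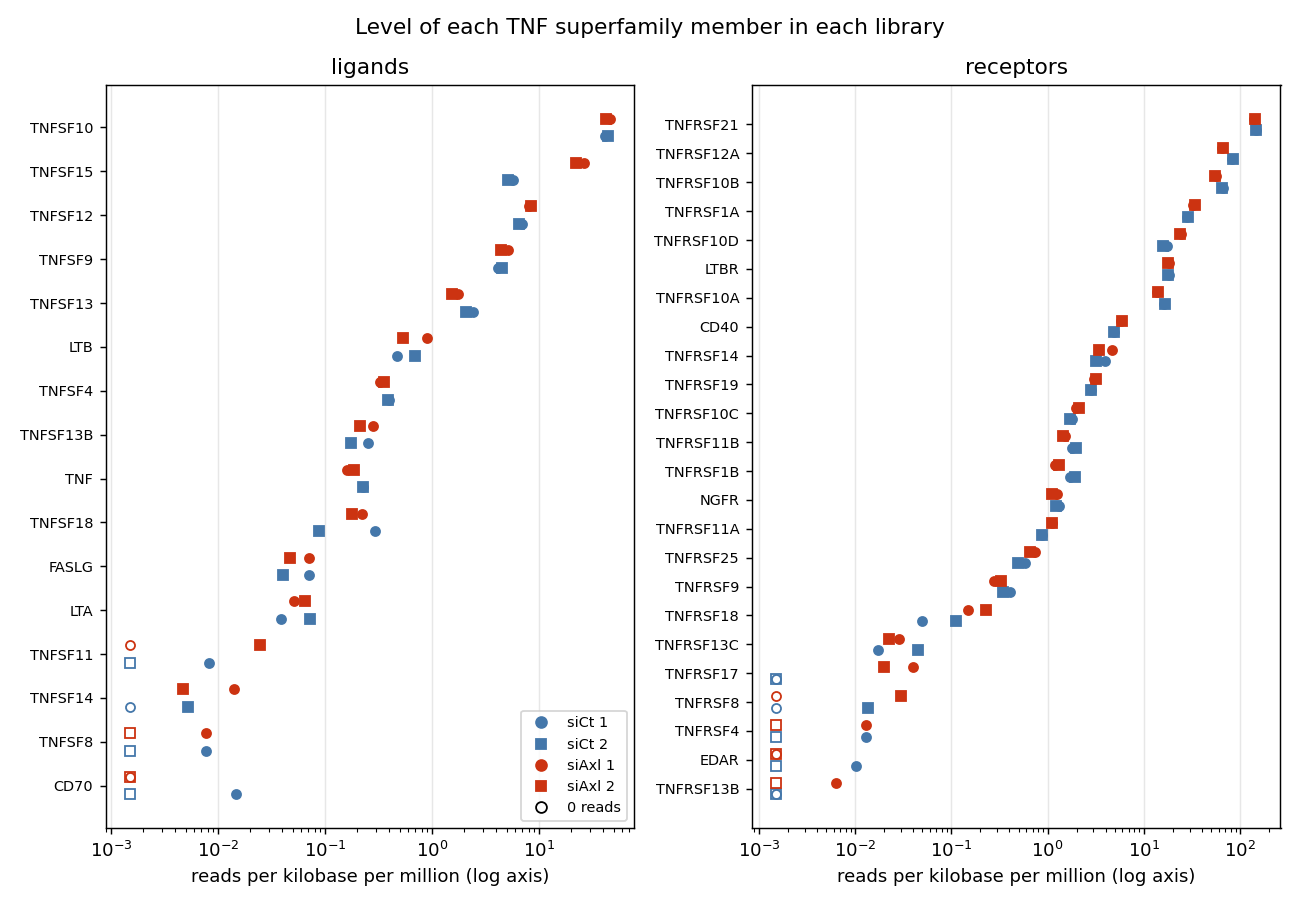
Level of each ligand (left) and receptor (right) in each library, in RPKM on a log axis, with blue for siCt, red for siAxl, circles for replicate 1, squares for replicate 2, and open symbols at the left edge for 0 reads. Members with 0 reads in all 4 libraries are not drawn. TNFSF15 is the ligand whose red and blue symbols lie farthest apart among the abundant ones (5.77 and 5.10 against 26.3 and 22.5 RPKM).

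Of the 44 members, 27 passed the filter on low counts and 17 did not. Among those tested, 9 were called at an adjusted p under 0.05 (33.3%, where 18.7% of all tested genes were called), 6 of them higher in siAxl (all genes, 10.8%) and 3 lower (all genes, 7.91%). The ligands gave 2 calls of 10 tested, both higher, and the receptors 7 of 17, with 4 higher and 3 lower. The median log2 fold change of the tested members was 0.17, with 16 above 0 and 11 below, against a median of -0.0022 over all tested genes. The values of the 2 groups did not overlap for 19 of the 27, while this was so for 61.2% of all tested genes. The count rests on all 4 libraries and was lower whichever 1 was left out. The count over all tested genes moved too, so the shares of 33.3% and 18.7% hold for the full fit only. With 2 libraries against 2, a two-sided permutation test of a single member cannot go below 0.333, and the adjusted p-values come from the fit over all genes.

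**Figure D2:**
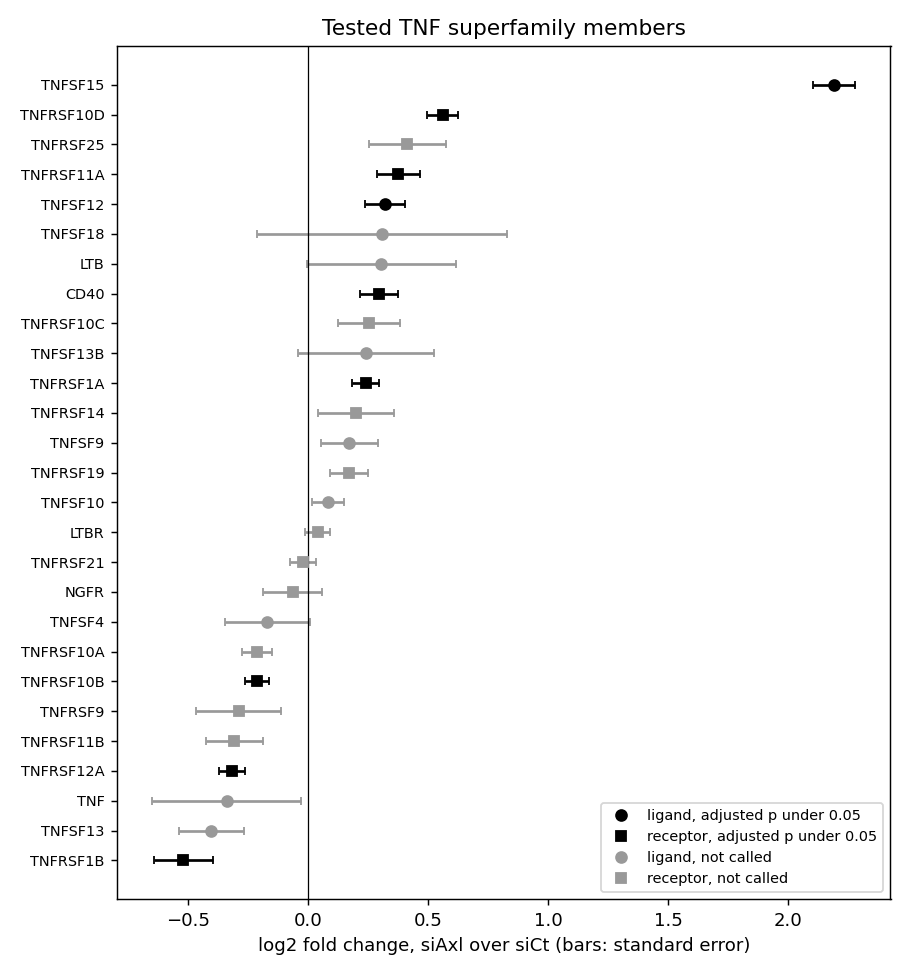
Log2 fold change of siAxl over siCt for the 27 tested members, with bars for the standard error, circles for ligands, squares for receptors, black for an adjusted p under 0.05 and grey for members not called. TNFSF15 (2.19) stands far to the right of the other members, whose values lie between -0.52 and 0.56.

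The largest difference of the family was in TNFSF15 (ENSG00000181634), the ligand also called TL1A, which acts on T cells through TNFRSF25 and is known as an inhibitor of endothelial growth. It was at 1933 and 1725 normalized counts in siCt 1 and siCt 2 and at 8980 and 7758 in siAxl 1 and siAxl 2. Both siAxl libraries were thus far above both siCt libraries, and the siAxl mean was 458% of the siCt mean. TNFSF15 rose by 2.19 on the log2 scale (adjusted p = 0.000585, standard error 0.09), and only 1 of all 16064 tested genes had a larger log2 fold change. The call held whichever library was left out, with log2 fold changes from 2.09 to 2.30, and under every alternative tried. Its receptor TNFRSF25, a death domain receptor, was at 106 and 89.9 normalized counts in siCt and 139 and 123 in siAxl, which was not called (log2 fold change 0.41, standard error 0.16, adjusted p = 0.118). TNFRSF25 shares 104 exon bases with PLEKHG5 on the same strand and 383 with ESPN on the other, and how reads on shared bases were counted is not given in the sources used here. TNFRSF6B, a soluble decoy that binds TNFSF15 and FASLG, had 0 reads in every library, but all of its 1141 exon bases also belong to the readthrough gene RTEL1-TNFRSF6B, which had 412 reads per library, so its level could not be read from this table.

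TNFSF12 (ENSG00000239697), or TWEAK, a ligand of tissue repair and inflammation, was the other called ligand. It was at 555 and 530 normalized counts in siCt and at 656 and 702 in siAxl, with no overlap between the groups. The log2 fold change was 0.32 (standard error 0.08, adjusted p = 0.0386). TNFRSF12A (ENSG00000006327), or Fn14, is the receptor of TNFSF12 and is known to be induced by growth factors in many solid tumors. Its values were 6508 and 6700 in siCt and 5205 and 5388 in siAxl, lower in both siAxl libraries. TNFRSF12A fell by 0.32 on the log2 scale (log2 fold change -0.32, standard error 0.05, adjusted p = 0.0105), so ligand and receptor were called in opposite directions. The call of TNFSF12 was lost without siCt 2, siAxl 1 or siAxl 2 (adjusted p up to 0.195) and in DESeq2 (0.0637), and that of TNFRSF12A without siAxl 1 (0.0588). TNFSF12 also shares 553 exon bases with the readthrough gene TNFSF12-TNFSF13, a member that had 0 reads.

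TRAIL itself was not called while 2 of its 4 membrane receptors were. TNFSF10 was at 6142 and 6543 normalized counts in siCt and 7017 and 6420 in siAxl, so the groups overlapped (log2 fold change 0.08, standard error 0.07, adjusted p = 0.431). TNFRSF10B (ENSG00000120889), the more abundant of its death receptors, was at 14527 and 14497 in siCt and 12633 and 12417 in siAxl (log2 fold change -0.21, standard error 0.05, adjusted p = 0.0316). TNFRSF10A, the other death receptor, was at 2039 and 2120 in siCt and 1767 and 1823 in siAxl. Its log2 fold change was also -0.21 but it was not called (standard error 0.06, adjusted p = 0.0525), although several alternatives called it, edgeR (adjusted p = 0.0488) and library size alone (0.0296) among them. The groups did not overlap for either death receptor.

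Of the membrane-bound decoys of TRAIL, 1 of 2 was called, in the direction opposite to TNFRSF10B. TNFRSF10D (ENSG00000173530), a decoy with a truncated death domain, was at 2645 and 2416 normalized counts in siCt and 3748 and 3713 in siAxl. It rose by 0.56 on the log2 scale (standard error 0.06, adjusted p = 0.00329), and its call held whichever library was left out and in edgeR and DESeq2. TNFRSF10C, a lipid-anchored decoy that lacks an intracellular domain, was low and was not called, at 141 and 137 in siCt and 159 and 172 in siAxl (log2 fold change 0.25, adjusted p = 0.218). As a share of the summed RPKM of the 4 membrane receptors, both decoys made up 19.0% and 17.6% in siCt and 27.3% and 27.4% in siAxl, a description of these values chosen after they were seen. The call of TNFRSF10B was lost when any 1 library was left out (adjusted p 0.0885 to 0.159). The 4 genes resemble each other in sequence, and reads that could belong to several of them make each value uncertain.

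TNF and its own receptors showed another split. TNF mRNA was near the limit of detection, with 58 reads in all (95% Poisson interval 44.0 to 75.0, counting error only), 16.3 normalized counts in each siCt library and 11.7 and 13.8 in siAxl (log2 fold change -0.34, standard error 0.31, adjusted p = 0.496). TNFRSF1A (ENSG00000067182), which carries the death domain and signals to NF-kB and to cell death, was at 4814 and 4974 in siCt and 5649 and 5907 in siAxl. It was called higher (log2 fold change 0.24, standard error 0.06, adjusted p = 0.0279). TNFRSF1B (ENSG00000028137), the second TNF receptor, which binds TRAF proteins and is most prominent on immune cells, was at 273 and 312 in siCt and 193 and 214 in siAxl. It fell by 0.52 on the log2 scale (log2 fold change -0.52, standard error 0.12, adjusted p = 0.0295), the largest fall among the members. Of the summed RPKM of both receptors, TNFRSF1B made up 5.69% and 6.25% in siCt and 3.51% and 3.71% in siAxl. The call of TNFRSF1A was lost without siCt 1, siAxl 1 or siAxl 2 (adjusted p 0.0626 to 0.151) and that of TNFRSF1B without siCt 2, siAxl 1 or siAxl 2 (0.0546 to 0.130).

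The lymphotoxins, which act with LTBR in the formation of lymphoid organs, were barely present. LTA had 17 reads in all and was not tested, and LTB was at 30.7 and 45.5 normalized counts in siCt and 59.2 and 36.4 in siAxl (adjusted p = 0.542). LTBR, in contrast, was abundant, at 4822 and 4746 in siCt and 4941 and 4904 in siAxl, and was not called (log2 fold change 0.04, standard error 0.05, adjusted p = 0.632). LTBR shares 422 exon bases with SCNN1A on the other strand (2576 reads per library for SCNN1A), and the strand setting of the counting is not given in the sources used here. TNFRSF21 likewise was not called, at 22602 and 22651 in siCt and 21887 and 22746 in siAxl (log2 fold change -0.02, standard error 0.05, adjusted p = 0.835). The most abundant member thus had overlapping groups.

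**Figure D3:**
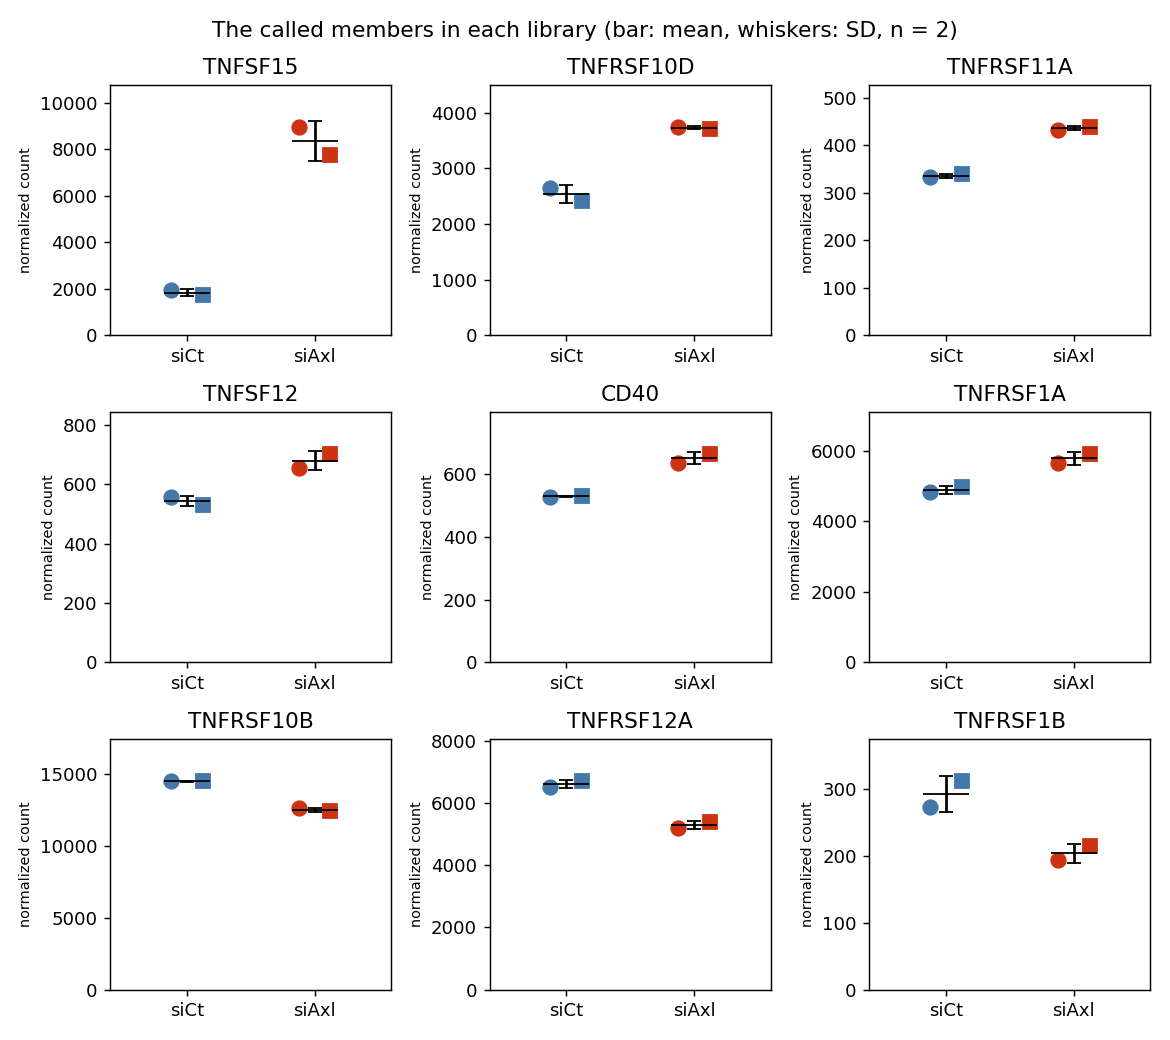
Normalized counts of the 9 called members in each library, from 0, with circles for replicate 1, squares for replicate 2, the mean as a bar and the SD as whiskers (n = 2). In each panel both siAxl values lie on the same side of both siCt values, above them for 6 members and below them for TNFRSF10B, TNFRSF12A and TNFRSF1B.

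Among the remaining receptors that bind TRAF proteins, 2 were higher. TNFRSF11A (ENSG00000141655), or RANK, which drives osteoclast formation and mammary gland development, was at 333 and 339 normalized counts in siCt and 433 and 439 in siAxl (log2 fold change 0.38, standard error 0.09, adjusted p = 0.0308). CD40 (ENSG00000101017), the receptor through which T cells help B cells and dendritic cells, was at 528 and 530 in siCt and 636 and 664 in siAxl (log2 fold change 0.30, standard error 0.08, adjusted p = 0.0433). The 2 libraries of each group lay close together for both genes. TNFRSF11A was not called without siAxl 1 or siAxl 2 (adjusted p = 0.125 and 0.134), CD40 was not called whichever of the 4 libraries was left out (0.0690 to 0.204) or with library size alone (0.0530), and neither was called in DESeq2 (0.0637 and 0.0903). Their ligands gave almost no reads in these cells, 4 in all for TNFSF11 (RANKL) and 0 for CD40LG.

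TNFRSF14 and TNFRSF19, also receptors that bind TRAF proteins, and the decoy TNFRSF11B and the death domain receptor NGFR were tested and not called. TNFRSF14, the receptor of TNFSF14 and LTA, had wide groups, at 1054 and 846 normalized counts in siCt and 1262 and 932 in siAxl. Its log2 fold change was 0.20 (standard error 0.16, adjusted p = 0.425), but it was called at 0.36 without siCt 1 (adjusted p = 0.0130) and lay at -0.02 without siAxl 1. TNFRSF19, which is linked to Wnt signaling in development, had a log2 fold change of 0.17 (adjusted p = 0.185). TNFRSF11B, or osteoprotegerin, the secreted decoy of TNFSF11 and TRAIL, was at 227 ± 16.0 in siCt and 183 ± 3.33 in siAxl, with no overlap (log2 fold change -0.31, adjusted p = 0.118). NGFR, the low-affinity receptor of the neurotrophins, had overlapping groups (log2 fold change -0.06, adjusted p = 0.760), and EDAR, a death domain receptor needed for skin appendages, had 2 reads in all and was not tested.

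The ligands and receptors of lymphocyte costimulation and of B cells were mostly at the floor. TNFSF9, the ligand of the T cell receptor TNFRSF9 (4-1BB), was the most abundant of them, at 308 ± 23.7 normalized counts in siCt and 348 ± 37.2 in siAxl with overlapping groups (log2 fold change 0.17, adjusted p = 0.362), and TNFRSF9 itself was at 102 ± 12.1 and 83.1 ± 10.4 (log2 fold change -0.29, adjusted p = 0.299). TNFSF13 (APRIL), a survival factor of plasma cells, was at 232 and 203 in siCt and 174 and 154 in siAxl. Its groups did not overlap, but it was not called (log2 fold change -0.40, adjusted p = 0.0797, standard error 0.13). Of its exon bases, 1263 are shared with TNFSF12-TNFSF13. TNFSF13B (BAFF), the main survival factor of B cells, was at 22.8 to 36.9 in the 4 libraries (adjusted p = 0.598). TNFSF4 (OX40 ligand) was at 56.3 to 67.1 (log2 fold change -0.17, adjusted p = 0.551) and TNFSF18, a further ligand of T cell costimulation, at 7.58 to 24.9 (adjusted p = 0.726).

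The 17 members under the filter had at most 32 reads summed over the 4 libraries. TNFRSF18 had 3, 6, 9 and 14 reads in siCt 1, siCt 2, siAxl 1 and siAxl 2, FASLG had 6, 3, 6 and 4, and TNFRSF13C, the BAFF receptor, had 3, 7, 5 and 4. For CD70, EDAR, TNFRSF4, TNFRSF8, TNFRSF13B, TNFRSF17, TNFSF8, TNFSF11 and TNFSF14 the sum was between 1 and 7 reads. CD27 and CD40LG had 0 reads in every library, which for CD40LG at this depth allows up to 3 reads in each. CD27 shares 522 exon bases with CD27-AS1 on the other strand and 29 with TAPBPL on the same strand, so this limit may not hold for it. TNFRSF6B and TNFSF12-TNFSF13 also had 0 reads, but all their exon bases are shared with other genes, so that no limit from depth can be given. The B cell receptors TNFRSF13B, TNFRSF13C and TNFRSF17 were thus all untested, as were 4 of the 5 costimulatory receptors. Differences in these genes were not detectable at this depth. Several members lie next to each other in the genome, and for the called ones the neighbours were not called, as with TNFRSF10D between TNFRSF10C and TNFRSF10A, or were not tested, as with TNFRSF1B beside TNFRSF8.

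Among 4 relatives of the family that the symbols leave out, 3 were tested and 1 was called (18.7% of all tested genes were called). EDA, the ligand of EDAR, rose from 3.84 and 3.25 normalized counts in siCt to 17.5 and 16.7 in siAxl (482% of the siCt mean, standard error of the log2 fold change 0.38, adjusted p = 0.0149). These are very few reads, DESeq2 gave no adjusted p, and the call was lost without siAxl 1 (0.0730) or siAxl 2 (0.0594). FAS, the death receptor of FASLG, was at 206 and 218 in siCt and 175 and 212 in siAxl and was not called (log2 fold change -0.14, adjusted p = 0.535). RELT was not called either, and EDA2R had 0 reads. ADAM10 and ADAM17, the proteases that shed TNF, TNF receptors and other membrane proteins, were both called higher in siAxl (all genes, 10.8%). ADAM17 was at 3723 ± 131 in siCt and 4741 ± 121 in siAxl (log2 fold change 0.35, standard error 0.06, adjusted p = 0.00947). Its call held whichever library was left out. ADAM10 was at 9330 ± 590 and 11130 ± 372 (log2 fold change 0.26, standard error 0.06, adjusted p = 0.0344). That call was lost without siCt 1, siAxl 1 or siAxl 2 (0.0771 to 0.149).

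The genes of the proteins just below the receptors were also counted. Of 32 genes of adaptors, ligases and kinases, 31 were tested and 3 were called (18.7% of all tested genes were called), all lower (7.91%), and the list's median log2 fold change was -0.03. CHUK, a kinase of the IKK complex, had a log2 fold change of -0.25 (adjusted p = 0.0365), BIRC3, a ubiquitin ligase recruited by TRAF2, of -0.24 (0.0280) and TRAF4, a TRAF protein linked to cell junctions, of -0.23 (0.0433). All 3 calls were lost without siCt 2, siAxl 1 or siAxl 2 (adjusted p 0.0721 to 0.205). The count of this list moved with the processing. It was 0 with at least 1 read in any library, 6 with library size alone, 2 without siCt 2, and 0 without siAxl 1 or siAxl 2. The other 28, among them TRADD, FADD, RIPK1, TRAF2, CASP8 and CFLAR, were not called. RIPK3, the kinase of necroptosis, was under the filter, at 2.17 to 12.8 normalized counts.

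Of 28 genes known to be induced by TNF and NF-kB, all tested, 12 were called (18.7% of all tested genes), with 9 lower (7.91%) and 3 higher (10.8%), and the median log2 fold change of the list was -0.14. The largest falls were in secreted factors. CXCL3, a neutrophil chemokine, was at 374 ± 19.3 normalized counts in siCt and 126 ± 23.8 in siAxl (log2 fold change -1.58, adjusted p = 0.00219). CSF2, the cytokine GM-CSF, was at 5590 ± 329 and 2309 ± 34.2 (log2 fold change -1.27, adjusted p = 0.000585). CXCL2, a related chemokine, had a log2 fold change of -0.86 (adjusted p = 0.00577), IER3, a gene of early stress responses, of -0.71 (0.00241) and PTGS2, the inducible cyclooxygenase, of -0.39 (0.00823). TNFAIP2 followed with -0.32 (0.0119). The 5 genes from CXCL3 to PTGS2 were called whichever library was left out, while TNFAIP2 lost its call without siAxl 2 (0.0648). IRF1, IL6 and BIRC3 were the other 3 that fell. The list moved in both directions, and JUNB, RELB and ICAM1 rose by 0.33, 0.32 and 0.31 on the log2 scale (adjusted p = 0.0166, 0.0295 and 0.0196), while NFKBIA, NFKB1, NFKB2 and TNFAIP3 were not called. The calls of IRF1, IL6, BIRC3, JUNB, RELB and ICAM1 were each lost without siAxl 2 (adjusted p 0.0764 to 0.155), those other than ICAM1 also without siAxl 1 (0.0560 to 0.146), and those of IL6 and BIRC3 also without siCt 2 (0.184 and 0.116). BIRC3, TRAF1 and TNFAIP3 belong to both lists.

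**Figure D4:**
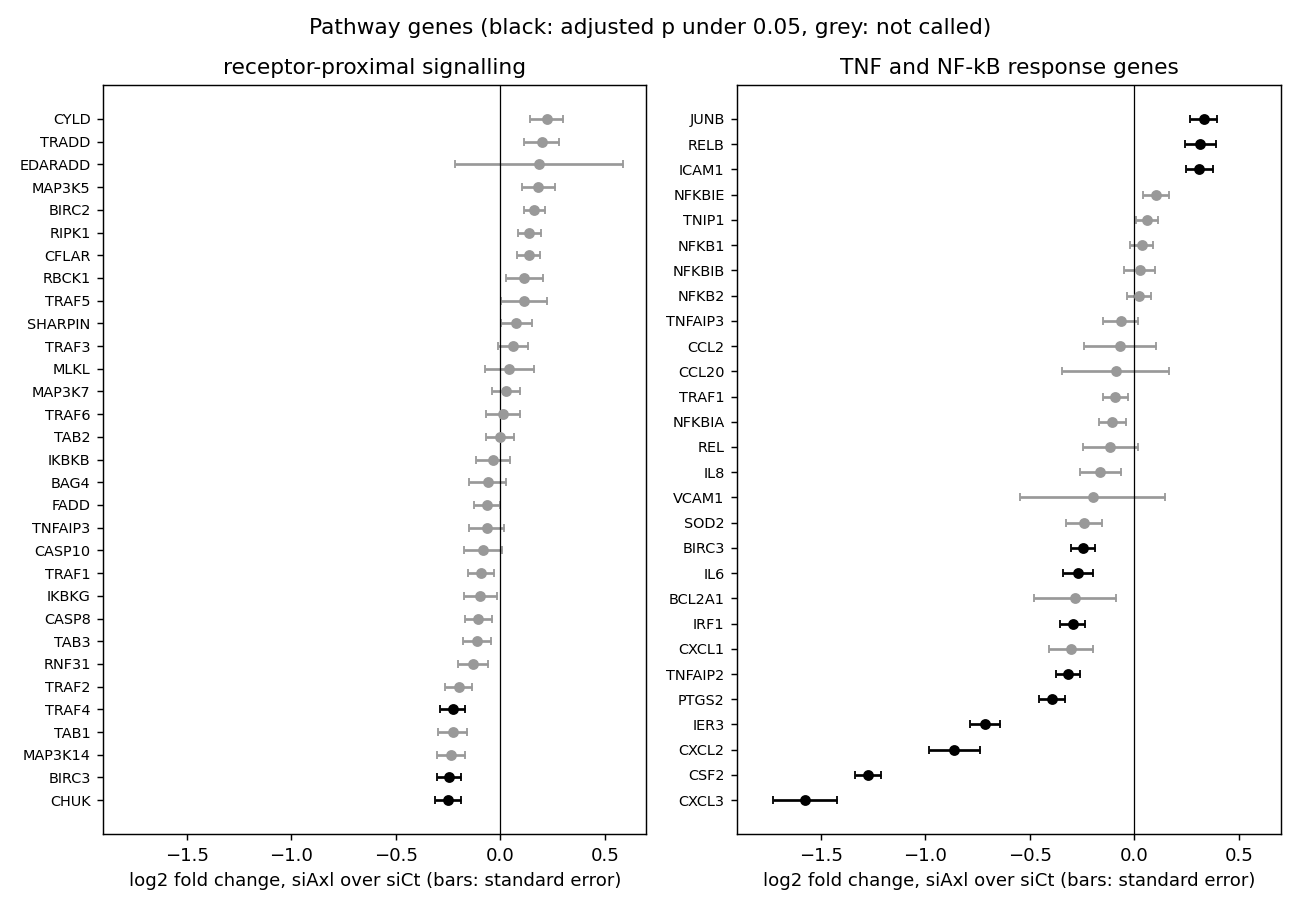
Log2 fold change of siAxl over siCt, with bars for the standard error, for the 31 tested genes of receptor-proximal signaling (left) and the 28 response genes (right), in black where the adjusted p was under 0.05 and in grey otherwise. The genes on the left lie within 0.25 of 0, whereas CXCL3 (-1.58) and CSF2 (-1.27) lie far to the left among the response genes.

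Read by ligand and receptor pairs, the values differed from pair to pair. For TNFSF15 and TNFRSF25 the ligand rose and the receptor was not called. For TNFSF12 and TNFRSF12A the ligand rose and the receptor fell. For TRAIL the ligand was not called and 1 decoy rose. Both death receptors had a log2 fold change of -0.21, of which only that of TNFRSF10B was called. For TNF the ligand was too scarce to judge, with TNFRSF1A higher and TNFRSF1B lower. CD40 and TNFRSF11A were called higher with almost no reads of their ligands. Of all these calls, only those of TNFSF15 and TNFRSF10D held whichever library was left out, and those of TNFRSF10B and CD40 were lost each time. After TNFSF15, at 2.19 on the log2 scale, the next called member by size of difference was TNFRSF10D at 0.56.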

How the data were processed

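RNA from 4 MDA-MB-231 libraries was sequenced. The submitters' processing notes name CASAVA 1.8, TopHat2 2.0.10, HTSeq 0.5.3, DESeq2 1.4.5 and the build GRCh37, while the annotation and strand setting are not given in the sources used here. The authors deposited 1 table of signal values, namely counts per gene divided by DESeq2 size factors. Its columns of the authors' own fold changes and p-values were not used. Whole reads were recovered (100% of values within a tolerance of 0.01).

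Groups were taken from the labels. limma 3.58.1 (lmFit, eBayes with trend, R 4.3.3) was run across all genes on log2(normalized count + 1), which understates the fold of low genes, after edgeR's filterByExpr on recovered reads, with 16064 of 63677 genes tested and no covariate. Calls were made at an adjusted p (Benjamini-Hochberg) under 0.05. The fit was tested on simulated data. Alternatives were pseudocounts of 0.5 and 8, TMM scaling or library size alone, at least 1 read in any library or 10 in every library, edgeR 4.0.16 and DESeq2 1.42.0 on recovered reads, a replicate block, leaving out each library and an adjusted p under 0.01. RPKM used exon lengths from GENCODE release 29 by Ensembl identifier, which held 82.5% of identifiers and all 44 members, and overlaps and neighbours came from the same release. That release is of another build than the reads, so no coordinates from it are given.

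The members, lists and roles were chosen with earlier results of these data known, so no list was tested. All members were named, with all 4 values for the called members and the 5 of highest mean among those not called, and up to 6 called genes of each list by smallest adjusted p. The values of further members, and JUNB, RELB and ICAM1, were chosen after they were seen. Intervals of counts are exact 95% Poisson intervals and cover counting error only.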

Additional observations from a re-analysis of the deposited data

How the results depend on the processing

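The main fit called 9 of 27 members (6 higher, 3 lower) and 3006 of 16064 genes. Requiring only 1 read in any library gave 3 of 40 members (2 and 1) and 1097 of 27108 genes. DESeq2 called 6 of 23 members with an adjusted p (3 higher, 3 lower) and 2759 of 12949 genes. An adjusted p under 0.01 gave 2 members (2 and 0), and its share over all genes was not counted. Leaving out 1 library gave 2 to 7 called, 2 to 5 higher and 0 to 2 lower, and the lone library left in a group is then assumed to vary like the others. Of the list genes, 17 were called, and 9 with 1 read in any library, 6 at 0.01 and 6 to 18 without 1 library. The labels do not say whether equal replicate numbers mark a shared batch, and the main fit has no term for one. The log2 differences between replicates 1 and 2 correlated at 0.36 between the groups over 15209 genes. The replicate block gave 15 members called (9 higher, 6 lower), 33 list genes (15 of the adaptor list) and 7310 genes in all against 3006. The members this block added were TNFRSF10A (adjusted p = 0.000235), TNFSF13 (0.00327), TNFRSF14 (0.00454), TNFRSF25 (0.0161), TNFRSF11B (0.0211) and TNFRSF19 (0.0388). Among the blood cell markers, the block called CD14 higher (adjusted p = 0.00329) and LYZ lower (0.0203). Of all calls 57.7% were higher, but 46.8% with library size alone, 69.0% with 1 read in any library and 68.3% without siAxl 1. Without 1 library, log2 fold changes ranged from -0.048 to 0.0076 for TNFRSF21, -0.018 to 0.42 for TNFRSF14, -0.15 to 0.026 for NGFR, -0.039 to 0.65 for LTB, -0.0071 to 0.49 for TNFSF13B and -0.49 to 1.11 for TNFSF18, with only TNFRSF14 called among them, without siCt 1. Of the alternatives of single members, 301 kept direction and side of the threshold, 30 lost the call, 9 gained one and 6 turned direction. AXL stayed between -2.07 and -1.79 without 1 library. Members under the filter lie below what this depth can compare.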
